A study of Mus musculus with 2 samples.

Results

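Mouse small intestinal organoids, epithelial structures grown in culture, were profiled by droplet-based single-cell RNA sequencing, with 1 control sample and 1 sample treated with the hormone melatonin in the labels. The cells described here are the G2/M-high cells: cells without a strong endocrine, Lgr5-high or absorptive signature whose summed level of 6 mitotic genes (Ube2c, Cenpa, Ccnb2, Nusap1, Cdca3 and Aurkb) was in the upper range. They number 453 of the 1809 cells in which the sum was ranked (the pool), and of 21806 barcodes in all. The pool holds cells with at least 10000 UMIs (unique molecular identifiers, each standing for 1 captured RNA molecule), at most 20% mitochondrial UMIs, Chgb under 5, Lgr5 under 2, and the sum of Apoa1, Apoa4, Fabp1 and S100g under 6, all per 10000 UMIs. Members lie at or above the pool's 75th percentile of the 6-gene sum, called M. The labels describe both samples as cells of 3 pooled organoid lines on culture day 3, 1 without and 1 with melatonin, and give no strain, sex or age of the source mice.

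The matrix, gene and barcode files of the samples were identical in 3 of 3 cases, so the data are 1 matrix, whose barcodes carry the ending 1 (set 1, 12364 barcodes) or 2 (set 2, 9442 barcodes). No label or header ties a set to a treatment. The control and melatonin conditions therefore cannot be compared, values are given for each set, and ratios of set 2 over set 1 have an arbitrary direction. Each set was treated as 1 unit without a replicate, so no test was run. Intervals are 95% intervals for counting error only. A gene was called when its level differed at least 1.5-fold with intervals apart. Across the steps of the rule, 4600 barcodes had at least 10000 UMIs, 3353 of them passed the mitochondrial limit, and 1809 remained in the pool (986 in set 1 and 823 in set 2). A total of 29 barcode sequences occurred with both endings, and 1 of these was a G2/M-high cell.

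Cells preparing to divide accumulate the kinase Cdk1 with its B-type cyclins, which drive entry into mitosis. The spindle then attaches chromosomes at kinetochores built on Cenpa-containing chromatin, and the spindle assembly checkpoint holds back the anaphase-promoting complex (APC/C), a ubiquitin ligase, until attachment is complete. With the activator Cdc20 and the ubiquitin-conjugating enzyme Ube2c, the APC/C then marks cyclin B for degradation and the cell divides. In the intestine, such divisions take place in the crypt, among Lgr5-positive stem cells and the transit-amplifying progenitors above them. Many genes of late cell cycle carry a CHR element (cell cycle genes homology region, TTTGAA or TTTAAA) and CCAAT boxes near their start, bound by the DREAM and MuvB complexes and by NF-Y. Genes of DNA synthesis more often carry E2F sites.

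The start-site windows of 4 of the 6 genes that define M are shown because these elements are textbook features of G2 and mitosis genes. Each is 300 bases long, 5′ to 3′, from the RefSeq table for GRCm38.p6, and capitals mark the CHR letters and the CCAAT box on either strand. On the other strand, the letters TTTGAA appear as TTCAAA. The CCAAT box appears there as ATTGG.
Ube2c (chr2:164769679-164769978, plus strand): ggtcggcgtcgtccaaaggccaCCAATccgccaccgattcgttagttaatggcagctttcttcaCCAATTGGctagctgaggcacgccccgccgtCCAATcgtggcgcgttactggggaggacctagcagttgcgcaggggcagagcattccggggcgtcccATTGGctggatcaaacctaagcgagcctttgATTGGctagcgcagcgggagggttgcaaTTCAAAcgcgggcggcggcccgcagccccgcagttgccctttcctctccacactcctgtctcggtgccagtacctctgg
Cenpa (chr5:30666636-30666935, plus strand): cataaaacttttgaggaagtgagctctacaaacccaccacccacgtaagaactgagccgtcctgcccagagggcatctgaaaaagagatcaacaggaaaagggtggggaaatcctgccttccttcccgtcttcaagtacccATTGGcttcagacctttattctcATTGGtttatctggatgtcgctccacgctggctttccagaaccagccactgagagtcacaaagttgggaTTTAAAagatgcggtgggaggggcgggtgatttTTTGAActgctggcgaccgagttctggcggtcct
Ccnb2 (chr9:70421505-70421804, minus strand): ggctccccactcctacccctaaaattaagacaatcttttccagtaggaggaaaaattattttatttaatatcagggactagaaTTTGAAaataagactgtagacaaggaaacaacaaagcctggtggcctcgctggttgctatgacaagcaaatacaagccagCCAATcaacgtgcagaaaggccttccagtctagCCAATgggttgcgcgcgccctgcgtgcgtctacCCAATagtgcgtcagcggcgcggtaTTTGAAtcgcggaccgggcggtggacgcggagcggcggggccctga
Nusap1 (chr2:119618048-119618347, plus strand): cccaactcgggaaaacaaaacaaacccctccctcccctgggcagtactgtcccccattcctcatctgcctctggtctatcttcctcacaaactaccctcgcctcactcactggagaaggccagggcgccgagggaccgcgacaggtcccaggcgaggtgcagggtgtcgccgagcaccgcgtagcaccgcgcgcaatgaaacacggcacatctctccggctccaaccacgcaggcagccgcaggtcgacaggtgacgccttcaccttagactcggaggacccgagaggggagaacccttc
In Ube2c, TTTGAA lies on the other strand at -29, with the start base counted as 0, and CCAAT occurs 6 times, of which one pair overlaps. Cenpa has TTTAAA at -17 and TTTGAA at 16, with 2 CCAAT boxes at -109 and -86. Ccnb2 has TTTGAA at -167 and at 4, and 3 CCAAT boxes at -87, -54 and -21. Neither sequence was found in the Nusap1 window, which says only that these letters are not in those bases.

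The same letters were counted over wider groups of genes with a window in the table. TTTGAA or TTTAAA occurred in 62 of 109 genes of the 8 G2 and mitosis lists (56.9%), in 8 of 30 replication genes (26.7%) and in 19.4% of the 7018 genes tested below that had a window. Over all 27025 windows the share was 27.8%. A CHR sequence together with a CCAAT box was present in 44.0% of the G2 and mitosis genes, in 20% of the replication genes and in 7.97% of the tested genes. The CCAAT box counted alone was in 66.1% of the G2 and mitosis genes, 70% of the replication genes and 39.6% of the tested genes. E2F letters (TTTCCCGC or TTTGGCGC, either strand) were found in 9.17% of the G2 and mitosis genes, 30% of the replication genes and 3.59% of the tested genes. Among genes called higher in the G2/M-high cells, 36 of 51 (70.6%) held a CHR sequence and 1 of 51 (1.96%) an E2F sequence. Among genes called lower the shares were 12 of 62 (19.4%) and 10 of 62 (16.1%).

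M formed a range with no gap at the threshold of 16.5. The 5 members just inside it had M from 16.5257 to 16.5416, and the 5 cells just outside had 16.4652 to 16.5179. Within 10% of the threshold lay 302 pool cells (16.7%), of which 145 were members and 157 were not. The G2/M-high cells are thus a range of M, cut at a percentile, and are not named here as a cell type. Their median M was 19.5, against 8.03 in the other 1356 pool cells, of which 55 had M at 0.

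**Figure D1:**
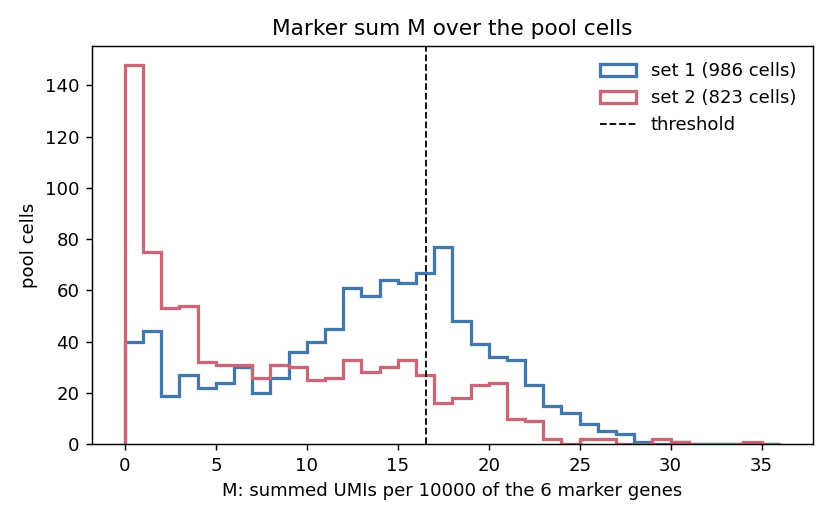
Number of pool cells (y axis) in each unit of M, the summed UMIs per 10000 of the 6 marker genes (x axis), for set 1 (986 cells) and set 2 (823 cells); the dashed line is the threshold of 16.5. Set 1 peaks near the threshold, set 2 has its highest bar at the lowest M, and neither shows a gap at the line.

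Of the UMIs behind M in the G2/M-high cells, Ube2c gave 52.0%, Cenpa 15.7%, Cdca3 12.9%, Nusap1 8.13%, Ccnb2 7.53% and Aurkb 3.70%. The values that chose the cells were as follows, with levels as CPM, the summed UMIs of a gene per 1000000 UMIs of its group and set. Ube2c stood at 1022 CPM in set 1 and 1055 CPM in set 2 in the G2/M-high cells, and at 498 and 294 CPM in the other pool cells. Nusap1, which bundles spindle microtubules, stood at 164 and 155 CPM, against 74.0 and 47.2 CPM. Cenpa, the centromeric histone H3 variant, stood at 317 and 302 CPM, against 171 and 117 CPM. Every G2/M-high cell had Ube2c, Cenpa and Cdca3 UMIs, while 36 of 453 had none of Aurkb, the kinase of the chromosomal passenger complex.

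To see how far other genes follow, 133 further genes were summed per cell as H, from 8 lists covering mitotic entry, the APC/C, the checkpoint, chromosomal passenger and cohesion proteins, the kinetochore, condensation, the spindle and cytokinesis. None of them is in M, but they were measured in the same cells, so these values describe the cells and test nothing. Median H per 10000 UMIs was 160 in the G2/M-high cells (157 in set 1 and 163 in set 2) and 112 in the other pool cells (122 and 96.6). The groups overlapped: 252 of 453 G2/M-high cells (55.6%) were at or above the pool's 75th percentile of H, and 173 other pool cells (12.8%) reached the G2/M-high median. The sum S of 38 replication genes had a median of 12.2 in the G2/M-high cells and 17.2 in the others, and 5 G2/M-high cells (1.10%) reached the pool's 75th percentile of S. Across pool cells, M and H had Pearson's r = 0.80 (Spearman's rho 0.78) and M and S had r = -0.41 (rho -0.29). Within the G2/M-high cells M and H had r = 0.33 (rho 0.26). These correlations are over 1809 and 453 cells, which come from the same barcode sets and differ in depth.

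**Figure D2:**
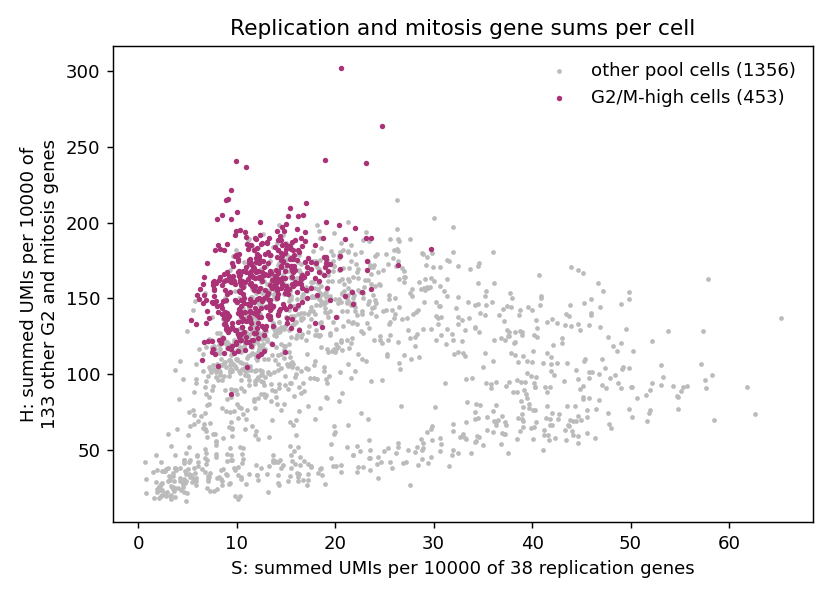
Each point is a pool cell, by the sum of 38 replication genes (S, x axis) and of 133 G2 and mitosis genes outside M (H, y axis), both in UMIs per 10000. The 453 G2/M-high cells (colour) sit at high H and low S, next to other pool cells (grey) that reach the same H.

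Depth was higher in the G2/M-high cells, with a median of 39057 UMIs (10146 to 106869) and 5445 genes, against 33708.5 UMIs and 5060.5 genes in the other pool cells. Their mitochondrial share was 8.90%, against 8.92%. With each cell thinned to 10000 UMIs, which left out no pool cell, the expected share of cells with Cdc20 was 86.1% in the G2/M-high cells and 46.8% in the other pool cells (99.6% and 69.4% unthinned). It was 10.4% in 280 cells with strong absorptive expression (absorptive sum of 60 or more, median 34920 UMIs) and 7.90% in 478 endocrine cells (Chgb of 20 or more, median 15477.5 UMIs). For Nusap1 the thinned shares were 78.1%, 35.7%, 7.74% and 5.36% in the same order. For Ube2c they were 99.99%, 76.9%, 26.5% and 25.5%. Background was not measured, and shares at the level of the last 2 groups are not read as expression. Of the 280 strongly absorptive cells, 10 were themselves at or above the threshold on M. Pcna, the replication clamp, had the reverse order between pool cells, at 23.2% in the G2/M-high cells and 46.0% in the others.

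Of 8818 genes at 5 CPM or more outside M, 65 (0.737%) were called higher and 77 (0.873%) lower in the G2/M-high cells than in the other pool cells, in each set alike. The median log2 ratio over all tested genes was 0.01 in set 1 and 0.00 in set 2. The 8 G2 and mitosis lists held 36 of the 65 higher genes and 1 of the lower, among 131 tested members, and their median log2 ratio was 0.42 in set 1 and 0.66 in set 2. The replication list held 20 of the 77 lower genes. Nothing is read from these counts, since the cells were chosen on genes of the same program.

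Among mitotic entry genes, 7 of 16 were called higher and 1 lower, with median log2 ratios of 0.49 and 0.84. Cdk1, the mitotic kinase, had a level of 260 CPM (251 to 269; set 1) and 279 CPM (265 to 294; set 2), against 160 CPM (155 to 166) and 125 CPM (121 to 130) in the other pool cells. Its partner Ccnb1 stood at 157 CPM (150 to 164) and 168 CPM (157 to 179), against 95.6 CPM (91.7 to 99.6) and 67.2 CPM (64.0 to 70.5). The G2/M-high values of both sets lay above those of both sets of other cells. Cdc25b and Cdc25c, phosphatases that activate Cdk1, had log2 ratios of 1.08 and 1.27 (Cdc25b, set 1 and set 2) and of 1.01 and 1.24 (Cdc25c). The kinases Plk1 (0.74 and 1.24) and Aurka (0.73 and 1.27) and the Cdk1 subunit Cks2 (0.61 and 0.86) were the remaining higher genes. Ccna2, cyclin A2, which acts in S phase as well, had 0.53 and 0.82 and was not called. Mybl2, a transcription factor that binds MuvB from S phase on, was the gene called lower, at 6.97 and 7.81 CPM against 12.5 and 15.8 CPM. The kinases that restrain Cdk1, Wee1 (0.05 and 0.39) and Pkmyt1 (-0.35 and -0.26), were not called.

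Among APC/C and mitotic exit genes, 1 of 12 was called higher, the activator Cdc20. Its level was 203 CPM (195 to 211; set 1) and 244 CPM (231 to 258; set 2), against 105 CPM (101 to 109) and 88.0 CPM (84.3 to 91.8). Core subunits differed little, with Cdc16 at log2 ratios of -0.02 and -0.06 and Cdc26 at 0.02 and -0.02. Ube2s, the enzyme that extends ubiquitin chains for the APC/C, had 0.45 and 0.78, and Fzr1, the activator of late mitosis and G1, had 0.57 and 1.04. Neither was called. Fbxo5, an APC/C inhibitor of S phase and G2, had -0.56 and -0.79.

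Most checkpoint, passenger and cohesion, centromere and condensation genes were not called, while over all 8818 tested genes 0.737% were called higher. Median log2 ratios in set 1 and set 2 were 0.30 and 0.63 (checkpoint) and 0.29 and 0.45 (passenger and cohesion). They were 0.25 and 0.43 for the centromere list and 0.37 and 0.59 for condensation. In the checkpoint list 1 of 12 was higher, the kinetochore scaffold Knl1 (0.61 and 0.72), and in the chromosomal passenger and cohesion list 1 of 12, Sgo2a, a protector of centromeric cohesion (0.75 and 1.22). The centromere list had 3 of 27, among them the kinetochore motor Cenpe (0.87 and 1.09) and the kinetochore protein Cenpf (0.98 and 1.52). Cenpf stood at 162 CPM (155 to 169) and 216 CPM (203 to 229), against 81.3 CPM (77.7 to 85.0) and 74.3 CPM (70.9 to 77.9), with the G2/M-high values of both sets above the others. Condensation genes had 1 of 13, the histone variant H2afx (0.75 and 1.11). Top2a, the topoisomerase that untangles chromosomes, stood at 193 and 264 CPM against 162 and 172 CPM and was not called. Neither was the proliferation marker Mki67 (log2 ratios 0.40 and 0.60) or the passenger protein Birc5 (0.24 and 0.75).

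Spindle and cytokinesis genes had the largest shares of called genes among the 8 lists. Of 27 tested spindle genes 15 were called higher, with medians of 0.59 and 0.95, and of 12 cytokinesis genes 7, with medians of 0.62 and 0.85. Arl6ip1, a shaping protein of the endoplasmic reticulum, stood at 460 CPM (448 to 472) and 504 CPM (485 to 524), against 243 CPM (237 to 249) and 184 CPM (178 to 189). Hmmr (0.87 and 1.18) and Tpx2 (0.84 and 1.19), which help to assemble the spindle, and Aspm (0.82 and 1.23), which acts at spindle poles, were higher. So were the kinesins Kif2c, Kif4, Kif22 and Kifc1, at 0.59 to 0.73 in set 1. The tubulins were split, with Tuba1c higher (0.59 and 0.93) and Tuba1b (0.06 and 0.26) and Tubb5 (0.12 and 0.36) not called. In cytokinesis, Prc1, which bundles the central spindle, stood at 117 and 139 CPM against 68.6 and 57.5 CPM. Kif14 (0.90 and 1.21), Kif20a (0.65 and 1.05) and Kif23 (0.71 and 0.84), motors of the midzone, and the abscission protein Cep55 (0.63 and 0.75) were also higher, as were Anln and Cit.

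**Figure D3:**
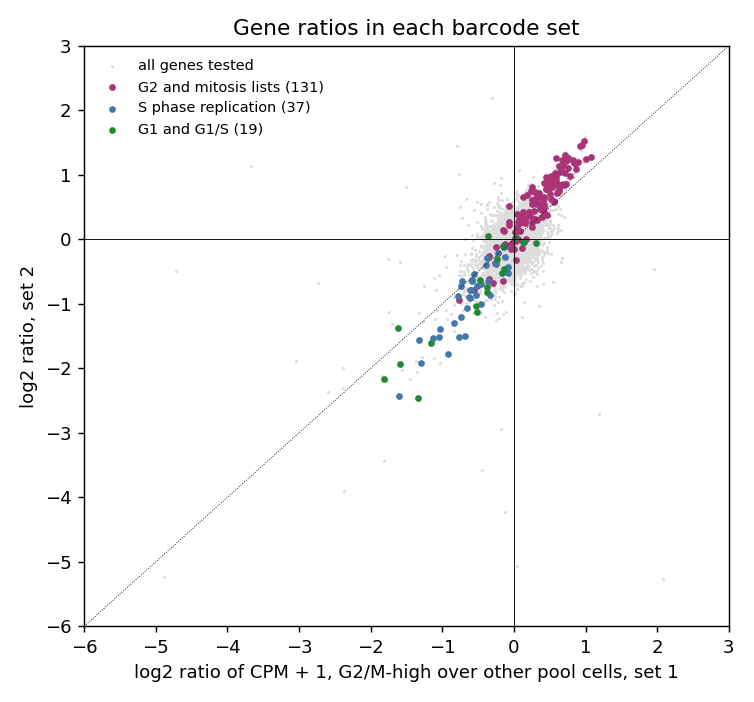
Log2 ratio of CPM + 1 in G2/M-high over other pool cells for each gene, in set 1 (x axis) and set 2 (y axis); grey points are all tested genes outside M and colours mark 131 G2 and mitosis, 37 replication and 19 G1 and G1/S genes. The G2 and mitosis genes lie mostly in the upper right and mostly above the dotted line of equal ratios, and the replication genes in the lower left.

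Some genes of the preceding phases were called lower than in the other pool cells. Of 37 tested replication genes 20 were called lower and 0 higher, with median log2 ratios of -0.60 and -0.79. Pcna had a level of 27.7 CPM (24.9 to 30.8; set 1) and 27.7 CPM (23.3 to 32.7; set 2), against 58.5 CPM (55.4 to 61.6) and 80.7 CPM (77.1 to 84.4). The helicase subunits Mcm2 to Mcm6 were each called lower and Mcm7 was not (-0.51 and -0.73). Ung, which removes uracil from DNA, stood at 2.53 and 3.12 CPM against 9.75 and 21.3 CPM. Lig1, the ligase of Okazaki fragments, had log2 ratios of -1.33 and -1.56. Dut, which supplies the precursor of thymidylate, was called lower (-0.61 and -0.79), while the log2 ratios of the thymidylate synthase Tyms (-0.38 and -0.28) and the thymidine kinase Tk1 (-0.46 and -0.69) did not meet the call. Of 19 G1 and G1/S regulators 5 were called lower: the E cyclins Ccne1 (-1.82 and -2.17) and Ccne2, the factor E2f1, and the origin licensing genes Cdc6 and Cdt1. Ccne1 stood at 3.48 CPM (2.53 to 4.68) and 4.29 CPM (2.69 to 6.50), against 14.8 CPM (13.3 to 16.4) and 22.7 CPM (20.9 to 24.7). The D cyclin Ccnd2 (-0.14 and -0.45) and the kinase Cdk4 (0.01 and 0.03) were not called. Among cell cycle inhibitors 1 of 12 was called, Cdkn3, a phosphatase that acts on cyclin-dependent kinases, at 88.6 and 88.8 CPM against 45.9 and 33.4 CPM.

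The order of these genes along M was followed over deciles of the pool. From decile 1 to decile 10 the median M went from 0.42 to 22.0 and median H from 38.0 to 164. Cdc20 went from 8.24 CPM in decile 1 to 112 CPM in decile 5 and 239 CPM in decile 10, and Ccnb1 from 5.77 to 101 and 176 CPM. Arl6ip1 and Cenpf also had their highest level in decile 10, at 553 and 189 CPM. Top2a instead stood at 212 CPM in decile 5 and 208 CPM in decile 10, and Birc5 at 320 and 343 CPM. Mki67 stood at 166 and 171 CPM in the same deciles. Replication genes had their highest levels in deciles 2 and 3: Pcna had 110 CPM in decile 2, 61.3 CPM in decile 5 and 25.8 CPM in decile 10. The linker histone Hist1h1b was highest in decile 3, at 77.9 CPM, and stood at 49.3 CPM in decile 10. Median depth moved along the same axis, from 26251 UMIs in decile 1 to 40534 in decile 8 and 37533 in decile 10, and the share of set 1 cells from 20.4% to 72.9%. Their part in these profiles was not tested.

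**Figure D4:**
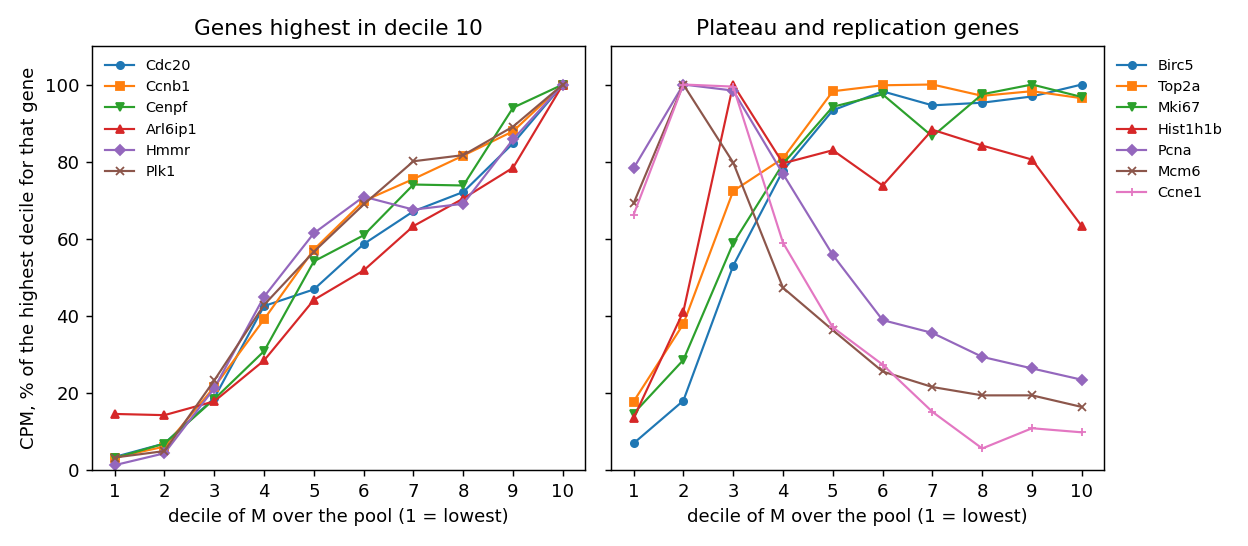
CPM in each decile of M over the pool (x axis, 1 is the lowest), as a percent of each gene's highest decile (y axis), in 180 or 181 cells a decile. The 6 genes on the left are highest in decile 10, while on the right Top2a, Mki67 and Birc5 vary little from decile 5 on and Pcna, Mcm6 and Ccne1 are highest in deciles 2 and 3.

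Of the 65 higher genes, 28 were in no list. The 10 with the largest smaller-of-the-sets ratio among those at 20 CPM or more were Miip, Sapcd2, Reep4, G2e3, Terf1, Fam83d, Nde1, Tnfaip8l1, Hist1h4d and Lockd. Several are known from mitosis: Reep4 clears endoplasmic reticulum from metaphase chromosomes, Fam83d recruits a kinase to the spindle, and Nde1 works with dynein. Terf1 binds telomere repeats. Reep4 stood at 71.7 and 72.8 CPM against 39.8 and 35.0 CPM, with UMIs in 293 of 327 cells of set 1 and 117 of 126 of set 2. Fam83d stood at 28.2 and 25.2 CPM against 16.2 and 11.1 CPM, and Lockd, a long non-coding RNA gene, at 59.6 and 61.9 CPM against 36.1 and 23.6 CPM. Lockd lies next to Cdkn1b, so reads of the pair could be assigned to either. Hist1h4d (66.3 and 61.1 CPM against 39.8 and 31.9 CPM) is 1 of many near-identical histone genes among which reads may be split.

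The 10 corresponding lower genes were Ghrl, Lgals3, Ifitm3, S100a14, Slfn9, Rpa1, Sprr2a3, Dnmt1, Secisbp2 and Cldn4. Rpa1, a subunit of the single-strand binding protein of replication, stood at 12.3 and 13.9 CPM against 22.0 and 27.2 CPM. Dnmt1, which copies DNA methylation at the fork, stood at 25.2 and 30.1 CPM against 42.1 and 53.6 CPM. Ghrl, the hormone ghrelin, stood at 10.5 and 5.66 CPM against 337 and 250 CPM, and in decile 1 of M it reached 2676 CPM. Among the other pool cells, 3 cells held 89.2% of the Ghrl UMIs in set 1 and 3 held 96.2% in set 2, so the level of the comparison cells came mostly from few cells. With cells high in Ghrl or in Anxa1, Anxa3 and S100a6 left out, an alternative chosen after seeing these values, 62 genes were higher and 59 lower.

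Narrower comparison groups gave more calls. Against the 448 pool cells highest in S (S-high, non-members at or above the pool's 75th percentile), 134 of 8812 genes were higher (1.52%) and 200 lower (2.27%). S is the sum of the replication genes, so the choice of these cells fixed the direction of that list, of which 36 of 37 tested genes were lower. Spindle genes were higher in 18 of 27 cases, and among all 131 G2 and mitosis genes 47 were higher and 9 lower. Against the 228 pool cells lowest in M and not S-high, a group chosen on mitotic genes, 411 of 8886 genes were higher (4.63%) and 308 lower (3.47%). In this comparison 113 of 127 G2 and mitosis genes were higher and 0 lower, including 27 of 27 spindle and 12 of 12 cytokinesis genes, with medians of 2.50 and 2.93 over the lists. Of 36 replication genes 11 were higher and 4 lower, and 11 of 12 genes of the revival-like list (annexins, Clu and other genes of the injured epithelium) were lower, against 1 of 7 in the S-high comparison. Some of the UMIs of this list lay in few cells: in set 1, 3 of the other pool cells held 70.9% of their S100a6 UMIs, and the highest of all other pool cells had a list sum of 499 per 10000 UMIs against a median of 2.77. Over all other pool cells the list median was -1.65, -0.94 with the deepest 5% of cells left out, -0.64 at the 90th percentile of M, and -0.56 with cells high in Ghrl or annexin genes left out.

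Lgr5-high cells, kept out of the pool by the rule, offer a second set of cells above the same threshold. Of 312 such cells 105 (33.7%, 28.4 to 39.2) were at or above it. Against these 105, the G2/M-high cells had 16 of 8738 genes higher (0.183%) and 1 lower (0.0114%). Both groups had passed the same threshold on M. Of the 105 cells 87 were in set 1 and 18 in set 2. A call had to be met in each set, so the 18 cells limit which genes could be called. None of 131 G2 and mitosis genes and none of 36 replication genes was called, with medians of -0.07 and -0.09 over the former and -0.03 and 0.06 over the latter. Of 4 tested goblet genes 3 were called higher, although 3 cells held 56.8% (set 1) and 93.5% (set 2) of the G2/M-high cells' UMIs of the goblet gene Tff3. By the same threshold, 10 of 280 strongly absorptive cells passed (3.57%, 1.73 to 6.47), and 0 of 478 endocrine cells (0%, 0 to 0.769).

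Genes of differentiated and other cell types were present at very different levels in the G2/M-high cells, and the pool rule had capped Chgb and the absorptive genes. The summed enterocyte list had a median of 24.5 per 10000 UMIs (28.5 in set 1 and 15.9 in set 2), against 19.9 in the other pool cells (26.5 and 14.9). The goblet sum had a median of 0.88 and a highest cell at 687, and the Paneth sum 3.61 and 509 (median 2.71 in the other pool cells), the latter led by the lectin Itln1 at 853 and 1041 CPM. The enteroendocrine sum had a median of 1.15, the revival-like sum 1.94, and tuft genes were at 0 in 440 of 453 cells. Of 8 immune genes 5, Ptprc among them, had no UMI in any G2/M-high cell, and 427 of 453 cells were at 0 for the list. Of 9 mesenchymal and endothelial genes 6 had none, and 413 cells were at 0. The shares that follow were not thinned, although median depth was 39057 UMIs in the G2/M-high cells and 33708.5 in the other pool cells. Among secretory progenitor genes, Atoh1 was found in 14 of 453 cells (3.09%, 1.70 to 5.13) and Neurog3 in 14 (3.09%, 1.70 to 5.13). In the other pool cells the shares were 1.62% (1.02 to 2.45) for Atoh1 and 2.43% (1.68 to 3.40) for Neurog3. Among the strongly absorptive cells Atoh1 was found in 0 of 280, which sets no limit on cells expressing it. Neurog3 was found there in 3 of 280 (1.07%, 0.222 to 3.099). Crypt stem and Wnt target genes differed little, with 1 of 16 called lower (Igfbp4) and medians of -0.09 and -0.08, and Lgr5 itself was capped by the rule.

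The share of G2/M-high cells differed between the barcode sets. In set 1, 327 of 986 pool cells were members (33.2%, 30.2 to 36.2), and in set 2, 126 of 823 (15.3%, 12.92 to 17.95). The same order held among Lgr5-high cells, at 40.7% (34.0 to 47.6) and 18.4% (11.3 to 27.5). It also held among cells with an absorptive sum of 6 or more, at 17.2% (13.4 to 21.6) and 10.9% (7.88 to 14.5), though there the intervals overlapped. Depth moved with the share: among the shallowest of 3 equal groups of pool cells by UMIs it was 17.6% and 5.06%, in the middle group 39.1% and 20.3%, and in the deepest 38.8% and 24.2%. Set 1 was thus above set 2 in each depth group. By mitochondrial share it was 35.9% and 16.8% at 5 to 10%, and 28.7% and 12.9% at 10 to 20%. Among cells at 20 to 50%, outside the pool, the sets were close, at 6.98% (4.19 to 10.8) and 6.15% (3.48 to 9.94). No label names a treatment or a library for either set, so the difference cannot be assigned to one of them.

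Within the G2/M-high cells, the sets were compared at the same threshold on M, which by itself brings their levels of mitotic genes together. Of 8787 genes 244 were higher in set 2 (2.78%) and 142 lower (1.62%), with a median log2 ratio of 0.06. Of 131 G2 and mitosis genes 2 were called, Cenpm (23.0 and 37.9 CPM) and Ska2 (9.18 and 15.2 CPM), both kinetochore genes and both higher in set 2, and the list median was 0.06. Of 36 replication genes 0 were called, with a median of 0.03. In the other pool cells the corresponding medians were -0.18 and 0.25, with 230 of 8841 genes higher (2.6%) and 147 lower (1.66%).

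Genes of oxidative defence were called higher in set 2 in both groups of cells. In the G2/M-high cells 10 of 13 were higher in set 2, with a median log2 ratio of 0.93, and in the other pool cells 8 of 12, with 0.79. Gpx2, a glutathione peroxidase of the gut epithelium, had a level of 578 CPM (565 to 592; set 1) and 1130 CPM (1101 to 1159; set 2), with UMIs in 326 of 327 and 126 of 126 cells. In the other pool cells it stood at 634 and 1194 CPM, so both groups were high in set 2. The glutathione transferase Gsta3 stood at 66.5 CPM (62.1 to 71.2) and 206 CPM (193 to 218), and Nqo1, a quinone reductase, at 20.7 and 41.2 CPM. Per cell, the summed list had a median of 26.7 per 10000 UMIs in set 1 and 41.2 in set 2. Enterocyte genes had the opposite order, with 6 of 11 lower and 1 higher in set 2 and a median of -0.77, against 7 lower and 1 higher with -0.72 in the other pool cells. Among them the brush border enzyme Sis stood at 181 and 69.3 CPM, and the exception, the peptidase Anpep, at 37.9 and 77.1 CPM. Dmbt1, a mucosal scavenger receptor protein, stood at 221 and 60.1 CPM, and Id2, an inhibitor of basic helix-loop-helix factors, at 104 and 38.2 CPM. The order was the same in the other pool cells, with Dmbt1 at 232 and 92.6 CPM and Id2 at 77.3 and 28.7 CPM.

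**Figure D5:**
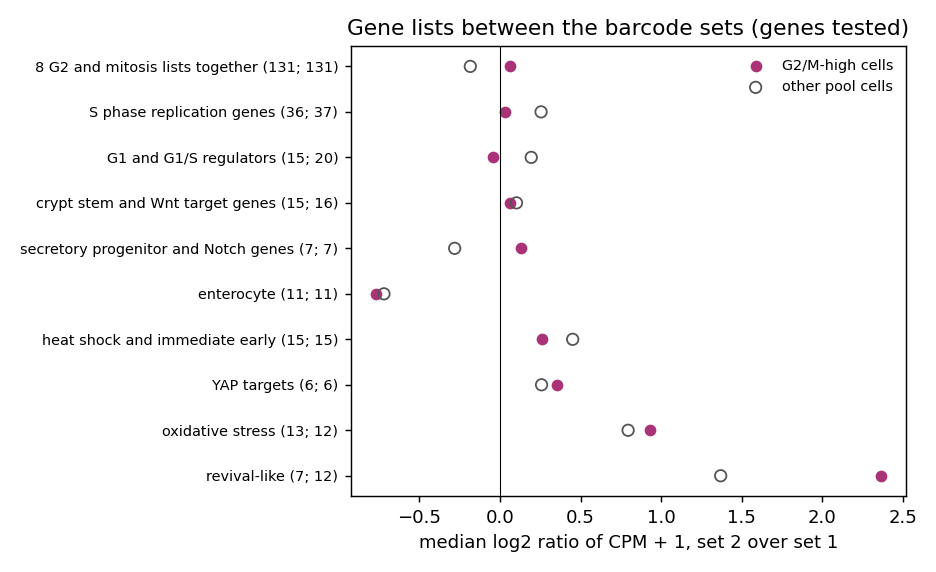
Median log2 ratio of CPM + 1, set 2 over set 1 (x axis), for 10 gene lists (y axis, with the genes tested in G2/M-high and other pool cells), in G2/M-high cells (filled) and other pool cells (open). Oxidative stress genes lie at 0.93 and 0.79, enterocyte genes at -0.77 and -0.72, and the G2 and mitosis lists at 0.06 and -0.18.

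For some other genes called between the sets, most UMIs came from few cells. Of those named here, the ratios of Tff3, S100a6 and Defa24 changed sign under some alternatives described below. In set 2, 3 cells held 93.5% of the UMIs of Tff3, a goblet cell peptide (224 CPM in set 1 and 1078 CPM in set 2). The corresponding share was 85.6% for S100a6, 72.6% for Ddit3, a stress factor, and 57.5% for the growth factor Areg. Areg stood at 71.3 CPM and 371 CPM, with UMIs in 205 of 327 and 99 of 126 cells. In set 1, 3 cells held 96.9% of the UMIs of the defensin Defa24 (129 and 14.4 CPM) and 99.4% of Rgs13, a tuft cell gene. The revival-like list had 6 of 7 genes higher in set 2 with a median of 2.36, but per cell its median was 1.63 in set 1 and 2.72 in set 2, with a highest cell at 18.03 and 161. Of the 244 genes higher in set 2, 97 (39.8%) were also called in the other pool cells, where they made up 42.2% of 230, and of the 142 lower genes 81 (57.0%, or 55.1% of 147).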

How the data were processed

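Per the labels' protocols, libraries were built with the 10x Genomics 3' chemistry, version 3, and per the submitters' processing notes Cell Ranger 3.1.0, STAR 2.7.3a and bcl2fastq 2.20.0 were used. The genome build and annotation are not given in the sources used here. The deposited values are whole-number UMI counts per gene and barcode, with no normalization, per the file headers. The matrix holds 31053 genes. From these counts, UMIs were summed per group of cells and set and scaled to CPM with exact Poisson intervals, and shares of cells were given exact Clopper-Pearson intervals (95%). Log2 ratios used CPM plus a pseudocount of 1, so changes of low genes are understated. Genes below 5 CPM on the mean of the compared groups were left out. Expected shares at 10000 UMIs came from the hypergeometric distribution. A call needed a 1.5-fold difference, in each set where cell groups were compared, with intervals apart. The calculation was tested on simulated counts. No doublet caller was used, and an alternative left out the 5% of pool cells with the highest UMI totals, which held 13 G2/M-high cells (2.87%) and 78 others (5.75%).

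The cells, gene lists and tests were chosen with earlier results of these data known. Genes were named by fixed rules: the genes of M, the 4 most abundant of each cell cycle list and 2 of each other list, the 10 genes outside the lists with the largest ratio in each direction at 20 CPM or more, and 6 in each direction between sets at 50 CPM or more. Other list members named here were chosen after their values were seen, and some genes that these rules cover are not reported here. Counting on strand is not stated in the sources used here. Promoter windows were matched by symbol to RefSeq for 5 of the 6 genes of M. Python 3.11.15, numpy 2.4.6, scipy 1.17.1, pandas 2.3.3 and matplotlib 3.10.9 were used.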

Additional observations from a re-analysis of the deposited data

How the results depend on the processing

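Alternatives changed the threshold on M, the cell filters, the fold, the pseudocount and the filter on low values. With the 90th percentile of M, G2/M-high cells were 13.4% of pool cells in set 1 and 5.95% in set 2, and 46 genes were lower than in the rest. With the percentile taken within each set the shares were 25.05% and 25.03%, as its construction fixes. A fold of 2 left 2 genes higher and 33 lower than in the rest, and 57 higher and 52 lower in set 2 than in set 1. A pseudocount of 5 CPM left 51 lower than in the rest and 136 higher in set 2. The following cell filters were chosen after seeing the data: with no exclusion by Chgb, Lgr5 or absorptive genes 133 genes were higher and 573 lower, and with no mitochondrial limit 89 and 81. With M computed without Ube2c, 348 of 453 cells were shared and 64 genes were higher and 72 lower. Among 96 named genes under 12 settings, no called ratio of G2/M-high over other cells changed sign. In genes not called, 33 of the 1152 values, from 20 genes, had the other sign, and 368 values in all moved. Of 333 medians over 24 lists under 14 settings, 113 moved and 13, from 5 lists, changed sign, among them the enterocyte list (0.16 to -1.01) and the crypt stem list (-0.13 to 0.06) with no exclusion by Chgb, Lgr5 or absorptive genes. Between the sets, Defa24 had a log2 ratio of -3.08, which turned to 0.16 with the percentile within each set and to 1.48 without Ube2c in M. With the deepest 5% of cells left out, S100a6 turned to -0.21 and Tff3 to -0.78, and without cells high in Ghrl or annexin genes Tff3 turned to -0.31. The cause of these changes was not tested. No paired analysis was possible because each group has 1 sample and both samples hold the same matrix. Depth limits genes near 5 CPM and cells under 10000 UMIs, which were not analysed here.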

Other observations

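Histone genes are expressed mainly in S phase, and most of their mRNAs lack a poly(A) tail, so a 3' library reads few of them. Of 67 histone cluster genes in the matrix 26 were tested, and 2 were called higher and 0 lower in the G2/M-high cells than in the other pool cells, with median log2 ratios of 0.35 in set 1 and 0.29 in set 2. Over all 8818 tested genes 0.737% were called higher and 0.873% lower. The higher genes were Hist1h4d and Hist1h2ab, the latter at 11.9 and 10.3 CPM against 6.84 and 5.57 CPM. Hist1h1b stood at 59.7 and 58.5 CPM, against 87.3 and 105 CPM in the S-high cells.

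Cdkn1a, the p53 target that inhibits cyclin-dependent kinases, stood at 53.0 CPM in set 1 and 132 CPM in set 2 within the G2/M-high cells, and at 88.3 and 104 CPM in the other pool cells. Over the G2/M-high cells of both sets, its median was 0.44, its upper quartile 0.80 and its highest value 27.3 per 10000 UMIs. The summed list of cell cycle inhibitors, with Cdkn1a in it, reached at most 18.8 in set 1 and 63.1 in set 2. The highest Cdkn1a cell thus lay in set 2. How much of the Cdkn1a level of set 2 came from few cells was not tested. Ccng1, another p53 target, stood at 65.9 and 121 CPM and at 61.1 and 106 CPM. Heat shock and immediate early genes had a median log2 ratio of -0.30 and -0.31 in the G2/M-high over the other pool cells, with 0 of 15 called. Hspa8, the constitutive chaperone, stood at 1418 and 1601 CPM against 1752 and 2033 CPM.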
